A study of Rattus norvegicus with 6 samples.

Results

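The genes described here are 31 genes of the neuronal cytoskeleton and of neurite outgrowth, among 14217 genes measured on the array. They were chosen by name from a list of genes known to mark neurons and to build neurites, and all 31 had at least 1 probe set assigned to that gene alone. A neurite is extended by microtubules of neuronal tubulin, which microtubule-associated proteins bundle and stabilise, while proteins of the stathmin, doublecortin and collapsin response mediator (CRMP) families control how microtubules assemble near the tip. At the tip, the growth cone, membrane-bound proteins such as Gap43 and Basp1 act on actin, and adhesion molecules of the immunoglobulin superfamily hold the growing process to its surroundings. As axons mature, neurofilaments are laid down and set their calibre.

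Dissociated spinal cord cells of newborn rats (P1-P4) were plated on glass coverslips covered with carbon nanotubes (CNT cultures, n = 3) or with polyornithine, a positively charged polymer to which cells attach (control cultures, n = 3). Both groups were grown for 8 days in vitro in the same medium with horse serum and a low concentration of nerve growth factor, and the labels give the substrate as the one difference. From each culture 100 ng of total RNA went, after amplification and labelling, onto 1 Affymetrix rat genome array. The labels name Sprague-Dawley rats and the paper's methods Wistar rats. The labels call the 3 samples of a group biological replicates, and the paper's methods name 3 culture series for each substrate. Whether CNT and control samples of the same number share a series is not stated. Precision is limited by the small number of arrays.

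The values are log2 expression after robust multi-array averaging (RMA), a scale on which 1 unit is a factor of 2, and every fold change is CNT minus control. The levels of different genes are not set against each other, since probe sets differ in how strongly they bind. The cultures are mixed, and in such bulk samples fewer neurons and less RNA per neuron cannot be told apart. Glial and other non-neuronal cells grow in them beside the neurons. A list of 22 other neuronal genes, outside the 31, averaged 8.50, 8.54 and 8.66 in CNT cultures and 8.47, 8.44 and 8.78 in control cultures. The 3' minus 5' difference of beta-actin, which grows as RNA degrades, was 0.92, 2.20 and 1.72 in CNT cultures 1, 2 and 3 and 2.20, 0.62 and 0.66 in control cultures 1, 2 and 3.

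Promoter sequences are shown for the 3 genes whose CNT and control arrays did not overlap (Map1b, Basp1 and Prph), for Dcx, which varied most between arrays, and for Scg2, which had the largest fold change. Each is the 250 bases just before the transcription start in RefSeq's rat assembly GRCr8, 5′ to 3′ on the gene's strand. The windows are chr2:32644472-32644721 (minus strand) for Map1b, chr2:77594298-77594547 (minus) for Basp1, chr7:132097039-132097288 (plus) for Prph, chrX:112304162-112304411 (minus) for Dcx and chr9:88256867-88257116 (minus) for Scg2. Capitals mark the letters TATAAA (the core letters of the TATA box), GGGCGG (a GC box) and TGACGTCA (the cyclic AMP response element), searched on both strands.
Map1b: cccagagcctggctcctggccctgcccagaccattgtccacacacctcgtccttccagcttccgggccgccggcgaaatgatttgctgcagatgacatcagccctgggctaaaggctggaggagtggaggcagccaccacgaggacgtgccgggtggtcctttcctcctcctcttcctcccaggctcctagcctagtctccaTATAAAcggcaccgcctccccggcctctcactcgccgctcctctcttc
Basp1: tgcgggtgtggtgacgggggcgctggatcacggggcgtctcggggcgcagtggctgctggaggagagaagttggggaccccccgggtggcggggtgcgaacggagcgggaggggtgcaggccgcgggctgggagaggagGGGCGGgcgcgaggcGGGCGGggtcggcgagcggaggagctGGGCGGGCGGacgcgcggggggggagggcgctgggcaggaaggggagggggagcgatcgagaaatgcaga
Prph: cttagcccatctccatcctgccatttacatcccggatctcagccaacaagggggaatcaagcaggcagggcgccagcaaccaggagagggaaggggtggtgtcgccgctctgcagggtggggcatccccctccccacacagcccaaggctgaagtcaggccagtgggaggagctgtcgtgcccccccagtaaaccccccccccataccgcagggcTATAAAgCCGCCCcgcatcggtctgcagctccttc
Dcx: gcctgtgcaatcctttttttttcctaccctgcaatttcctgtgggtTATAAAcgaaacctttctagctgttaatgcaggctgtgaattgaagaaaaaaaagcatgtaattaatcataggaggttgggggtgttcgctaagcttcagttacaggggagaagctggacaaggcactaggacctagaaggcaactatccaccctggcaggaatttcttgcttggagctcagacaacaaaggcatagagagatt
Scg2: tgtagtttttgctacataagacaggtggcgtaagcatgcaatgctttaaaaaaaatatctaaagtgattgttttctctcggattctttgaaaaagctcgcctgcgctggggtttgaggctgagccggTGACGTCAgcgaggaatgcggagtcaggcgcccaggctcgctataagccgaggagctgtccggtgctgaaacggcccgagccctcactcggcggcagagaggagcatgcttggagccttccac

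The promoter table held 17 of the 31 genes. TATAAA was found in 4 of these 17 windows (Map1b, Prph, Dcx and Uchl1), against 13.1% of all 27457 promoters, and began 48 bases before the start in Map1b, 35 in Prph and 204 in Dcx. GGGCGG was found in 11 of 17, against 32.4% of all promoters, and 4 times in Basp1. TGACGTCA was found in Scg2 alone, against 1.70% of all promoters. Also searched, but not marked in capitals, were the E-box CANNTG (N is any base) and the CCAAT box. The E-box was found in 11 of 17, against 65.2% of all promoters, and CCAAT in 2 of 17 (Tubb3 and Elavl2), against 34.3%. A match is a description of the sequence and not evidence that a factor binds there.

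None of the 31 genes differed between CNT and control cultures after adjustment over all genes (limma, Benjamini-Hochberg adjusted p = 0.999 for every member). Limma called 0 of the 14217 genes at an adjusted p under 0.05 (0%), and 443 of them at an unadjusted p under 0.05 (3.12%). Among the 31 genes 2 had an unadjusted p under 0.05, Prph in the higher and Map1b in the lower direction, against 2.41% of all genes higher and 0.71% lower. A rank product, the kind of test in the study's methods, was run here over all 9 CNT-control pairs on the manufacturer's probe sets. The study used other probe set definitions and took each sample as its own origin. The test run here called 70 genes (0.492%) and none of the 31. Because it required a 2-fold change, and the largest member change was -0.74 on the log2 scale (Scg2), it could call no member. The smallest p that an exact two-sided permutation test allows for 1 gene in this design of 3 and 3 arrays is 0.1.

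The fold changes of the 31 genes were small. Their median log2 fold change was -0.04 and their range -0.74 (Scg2) to 0.25 (Prph), against a median of 0.03 over all genes. The fold change was negative in 20 of the 31, against 41.5% of all genes, and only Scg2 exceeded 1.5-fold. In 26 of the 31 genes (83.9%) the difference was smaller than the pooled SD between arrays of a group, against 74.3% of all genes. The mean of all 31 genes was 9.52, 9.45 and 9.41 in CNT cultures 1, 2 and 3 and 9.50, 9.62 and 9.55 in control cultures 1, 2 and 3. It averaged 9.46 ± 0.06 in CNT and 9.56 ± 0.06 in control cultures (SD, n = 3 each), and CNT 1 lay inside the range of the control arrays. The direction of the median depended on single arrays. It was 0.10 without CNT 3 and 0.02 without control 2.

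**Figure D1:**
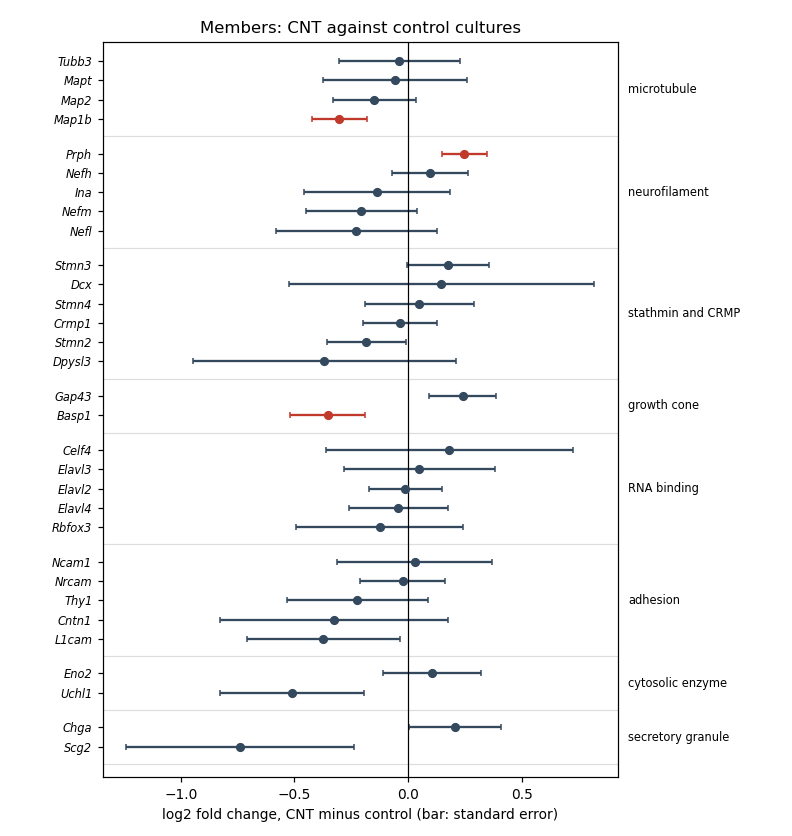
Log2 fold change, CNT minus control, of each of the 31 genes (x axis; bars are standard errors from limma, 3 arrays per group), grouped by role down the page. The 3 genes in red had CNT and control arrays that did not overlap, and the fold changes lay between -0.74 (Scg2) and 0.25 (Prph).

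In 3 of the 31 genes (9.68%) the CNT and control arrays did not overlap, against 7.99% of all genes, of which 5.94% had every CNT array higher and 2.05% every CNT array lower. Map1b, which bundles microtubules in growing axons and is among the first microtubule-associated proteins of a young neuron, was at 12.82, 12.63 and 12.89 in CNT cultures 1, 2 and 3, and at 13.00, 13.23 and 13.01 in control cultures. All CNT arrays lay below all control arrays. The log2 fold change was -0.30 (standard error 0.12, unadjusted p = 0.044, limma adjusted p = 0.999). The other probe sets of Map1b were also lower in CNT cultures on average, and the mean of all 3 probe sets differed by -0.58. The dimmest read 5.71, 5.63 and 6.21 in CNT and 6.86, 5.77 and 5.95 in control cultures, with overlap. The other read 9.17, 7.07 and 8.24 in CNT and 7.98, 10.30 and 9.46 in control cultures, also with overlap. Its log2 fold change of -1.09 was the largest of the 3 probe sets. It read lowest in CNT 2 and next lowest in control 1, the arrays with the largest 3' minus 5' difference of beta-actin (2.20 in each). The part of RNA quality in this probe set was not tested.

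Basp1, an acidic protein of the inner growth cone membrane, was at 11.92, 11.49 and 11.84 in CNT cultures and at 12.33, 12.04 and 11.94 in control cultures. Its groups were close, with CNT 1 just under control 3, and the log2 fold change was -0.35 (standard error 0.16, unadjusted p = 0.073). It was -0.22 without CNT 2, the lowest array. The other probe set of Basp1 had a log2 fold change of 0.11 with overlapping groups, and the mean of both one of -0.12. Prph, a neuronal intermediate filament of the peripheral axons of sensory and motor neurons, was at 6.85, 6.91 and 6.70 in CNT cultures and at 6.52, 6.56 and 6.63 in control cultures. All CNT arrays lay above all control arrays, and the log2 fold change was 0.25 (standard error 0.10, unadjusted p = 0.045, limma adjusted p = 0.999). Prph was among the 8 of the 31 genes that belonged to the dimmest 30% of genes.

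**Figure D2:**
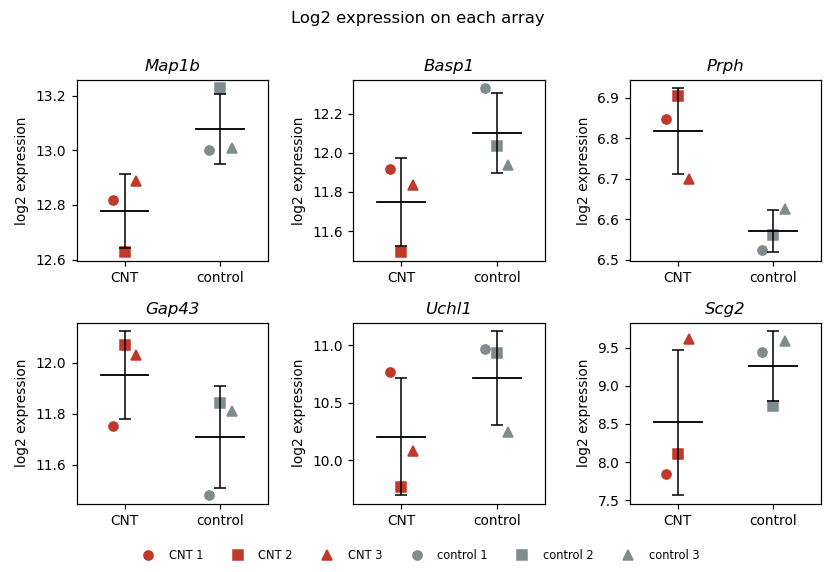
Log2 expression of Map1b, Basp1, Prph, Gap43, Uchl1 and Scg2 on each array, CNT left of control, with each axis on its own scale. Symbols mark the culture number, and black lines and bars are the mean and SD of 3 arrays. Only Map1b, Basp1 and Prph had groups that did not overlap.

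Markers of non-neuronal cells were averaged on each array as well, and in the 3 lists given here the CNT and control arrays overlapped. The 15 fibroblast and meningeal markers averaged 12.05, 10.95 and 12.46 in CNT cultures and 12.74, 12.38 and 12.38 in control cultures. Of the 15, 14 had a negative fold change, against 41.5% of all genes. The rank product called 2 of the 15, against 0.492% of all genes. The 13 microglia markers averaged 12.66, 12.69 and 12.14 in CNT cultures and 11.58, 12.38 and 12.32 in control cultures, and all 13 had a positive fold change. Over all genes 8318 of 14217 fold changes were positive. The 8 smooth muscle and pericyte markers averaged 10.25, 9.47 and 10.36 in CNT and 10.75, 10.14 and 10.31 in control cultures. Of these 8, 7 had a negative fold change, against 41.5% of all genes. At an unadjusted p under 0.05, 2 of the fibroblast genes were in the lower direction (0.71% of all genes) and 2 of the microglia genes in the higher direction (2.41% of all genes), and none passed limma's adjusted test. Thy1 and Basp1 are not confined to neurons and are also expressed by other cells of such cultures. The part of these cells in the values of the 31 genes was not tested.

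The remaining microtubule genes were close on both substrates. Tubb3, the neuronal beta-tubulin, was at 9.82, 9.69 and 9.20 in CNT cultures and at 9.30, 10.11 and 9.41 in control cultures, and the groups overlapped throughout. Map2, which stabilises dendritic microtubules, differed by -0.15 on the log2 scale (standard error 0.18), and Mapt, the axonal protein tau, of -0.06 (standard error 0.32). The mean of the 4 microtubule genes was 11.36, 11.23 and 10.84 in CNT and 11.10, 11.59 and 11.16 in control cultures, with overlap.

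Among the neurofilament genes no direction was shared. The subunits Nefl, Nefm and Ina had log2 fold changes of -0.23, -0.21 and -0.14, and Nefh, the heavy subunit that is added last in axon maturation, of 0.10, each with overlapping groups. Nefh was steady in CNT cultures at 6.83, 6.92 and 6.89, and less so in control cultures at 6.44, 7.05 and 6.86. The mean of the 5 filament genes was the steadiest of the role groups. It was 7.75, 7.76 and 7.68 in CNT and 7.77, 7.80 and 7.76 in control cultures, a difference of -0.05. The single filament genes were less steady, with a median SD over the 6 arrays of 0.33. In culture 3 of both groups Nefl was at its highest and Ina at its lowest, and the mean averages over such opposite steps. Nefl and Nefh, like Prph, were among the dimmest 30% of genes.

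Of the 6 genes of microtubule dynamics, Dcx and Dpysl3 varied widely between arrays (SD over the 6 arrays 0.91 and 0.80), while the median SD of the group was 0.27. Dcx, the doublecortin of migrating and young neurons, was at 9.08, 9.44 and 7.19 in CNT cultures and at 8.25, 9.26 and 7.75 in control cultures. It was low in CNT 3 and control 3, so that its fold change of 0.15 had a standard error of 0.67. Dpysl3, a CRMP of growing axons, was at 6.80, 7.22 and 8.58 in CNT and at 8.65, 7.06 and 7.997 in control cultures, and was high in CNT 3 and control 1. Its other probe set had a log2 fold change of 0.00, and across the 6 arrays it did not follow the first (Pearson r = -0.10).

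Stmn2, a stathmin of regenerating and growing axons, was at 10.25, 10.62 and 10.78 in CNT and at 10.65, 10.62 and 10.94 in control cultures. The groups overlapped, and the fold change of -0.18 (standard error 0.17) shrank to -0.033 when CNT 1 was left out and to -0.080 when control 3 was, and reached -0.30 when CNT 3 was. Its relatives Stmn3 and Stmn4 had fold changes of 0.17 and 0.05, and Crmp1 of -0.04. Gap43, the growth cone protein that is most used to mark outgrowth, was at 11.75, 12.07 and 12.03 in CNT and at 11.48, 11.84 and 11.81 in control cultures. Its log2 fold change was 0.24 (standard error 0.15, unadjusted p = 0.153), and only CNT 1 lay within the range of the control arrays. Without control 1, the lowest array, the fold change was 0.13. The growth cone genes Gap43 and Basp1 thus had fold changes of opposite sign, and neither passed the test.

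The RNA-binding proteins that mark neurons were close in both groups. Rbfox3, the NeuN antigen of mature nuclei, was at 6.55, 7.04 and 7.80 in CNT and at 7.22, 6.83 and 7.72 in control cultures, with overlap and a fold change of -0.12. Elavl2, Elavl3 and Elavl4, the neuronal Hu proteins, had fold changes of -0.01, 0.05 and -0.04. Celf4 was at 8.55, 8.32 and 9.85 in CNT and at 8.37, 8.16 and 9.64 in control cultures. It was high in culture 3 of both substrates, by 1.41 over the mean of the other CNT cultures and by 1.38 over that of the other control cultures.

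Of the adhesion genes, 4 of 5 had negative fold changes and all 5 had overlapping groups. L1cam, which guides axons along each other, was at 8.31, 7.85 and 9.20 in CNT and at 8.99, 8.65 and 8.84 in control cultures. CNT 1 and CNT 2 lay below all control arrays and CNT 3 above them, which gave a fold change of -0.37 (standard error 0.34). It was -0.072 without CNT 2 and -0.74 without CNT 3. Cntn1, a contactin of axons that is also made by glia, had a fold change of -0.33 (standard error 0.50), Thy1 of -0.22, Nrcam of -0.02 and Ncam1 of 0.03. The adhesion mean was 9.58, 9.16 and 9.09 in CNT and 9.43, 9.64 and 9.31 in control cultures, a difference of -0.18.

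The cytosolic neuronal enzymes differed in sign. Uchl1, a deubiquitinating enzyme abundant in neurons, was at 10.77, 9.77 and 10.08 in CNT and at 10.97, 10.94 and 10.25 in control cultures. CNT 2 and CNT 3 were below all control arrays, and the fold change of -0.51 (standard error 0.32, unadjusted p = 0.156) became -0.79 without CNT 1 and -0.29 without CNT 2. Eno2, the neuronal enolase, had a fold change of 0.10 (standard error 0.22). Scg2, a granin of dense core vesicles, was at 7.84, 8.10 and 9.61 in CNT and at 9.45, 8.73 and 9.59 in control cultures. CNT 3 lay just above the control arrays and both other CNT arrays below them, so that the fold change of -0.74 (standard error 0.50, unadjusted p = 0.190) was -1.28 without CNT 3 and -0.40 without CNT 1. Chga, another granin, was at 6.90, 7.001 and 7.18 in CNT and at 6.55, 6.67 and 7.24 in control cultures. Its fold change was 0.21 (standard error 0.20), and control 3 lay above all CNT arrays. It was 0.069 without control 1, 0.13 without CNT 3 or without control 2, and 0.42 without control 3.

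The 31 genes varied more between cultures than most genes did. Their SD over the 6 arrays had a median of 0.33, against 0.19 for all genes. Other lists varied as much or more, with medians of 0.34 for the 22 other neuronal genes, 0.47 for microglia and 0.59 for oligodendrocyte markers. Lower medians were found for the astrocyte markers (0.27) and for the other tubulins and microtubule regulators (0.19). Some of the 31 genes also varied along a shared axis, which became apparent only after the values had been seen. With Dcx, the most variable of them, as the anchor, 10 other genes had a Pearson r of at least 0.7 over the 6 arrays (Tubb3, Map2, Mapt, Ina, Stmn4, Elavl3, Elavl4, Crmp1, Ncam1 and Cntn1), against 22.1% of all genes. A further 6 genes had an r of at most -0.7 (Rbfox3, Nefl, Dpysl3, L1cam, Celf4 and Scg2), against 14.4% of all genes. The remaining 14 of the 31 fell in neither set. The axis was not particular to the 31 genes. An r of at least 0.7 was also found in 10 of 12 oligodendrocyte markers, 12 of 21 axonal transport motor genes and 17 of 34 other tubulins and microtubule regulators. Of the 22 other neuronal genes 4 varied with Dcx and 4 against it, and their mean had an r of -0.72 with Dcx. The points are 6 arrays of cultures that also differ in their glia, and over so few arrays an r of this size is a description.

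**Figure D3:**
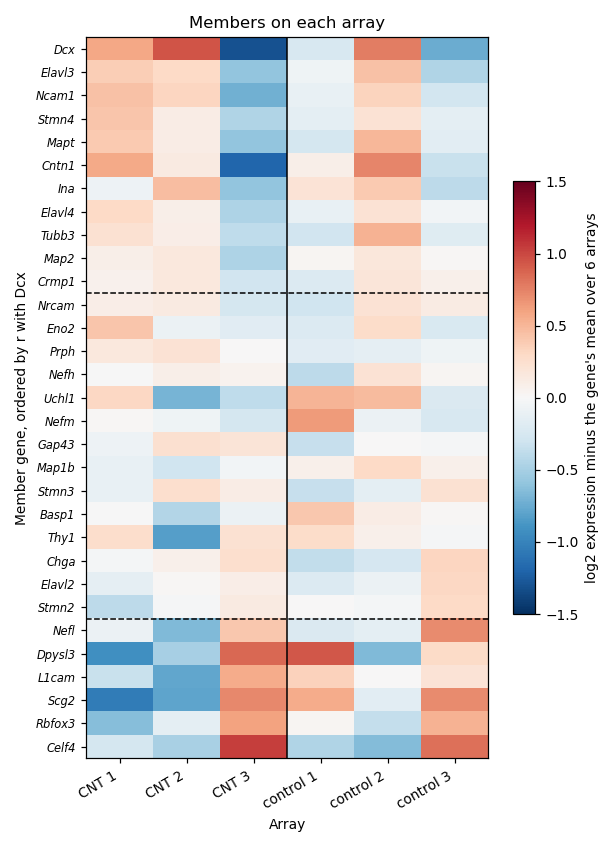
Log2 expression of the 31 genes on each of the 6 arrays, relative to each gene's mean (colour scale from -1.5 to 1.5), with CNT arrays left of control arrays and genes ordered from the highest to the lowest Pearson r with Dcx. Dashed lines separate Dcx and the 10 genes that vary with it and the 6 that vary against it. CNT 3 is low in the upper block and high in the lower block.

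The mean of Dcx and the 10 genes that varied with it was 10.39, 10.35 and 9.44 in CNT cultures 1, 2 and 3 and 9.98, 10.49 and 9.84 in control cultures. CNT 3 was the lowest of the CNT arrays by a wide margin, while control 3 lay near control 1 and control 2 was the highest. The mean of the 6 opposite genes was 7.56, 7.54 and 8.80 in CNT and 8.30, 7.78 and 8.65 in control cultures. Since these genes were picked for their r with Dcx over the same arrays, the direction of these means was fixed by the choice. Without CNT 3 and control 3, the arrays farthest from the median of Dcx, 7 of the 10 genes still had an r of at least 0.7 over the 4 remaining arrays, against 46.0% of all genes that had such an r over 6 arrays. Of the 6 opposite genes 3 still had an r of at most -0.7, against 53.8%.

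In 25 of the 31 genes CNT 3 and control 3 lay on the same side of the mean of the other cultures of their group, 13 lower and 12 higher, against 68.5% of all genes. CNT 3 was the lowest array in 12 of the 31 genes, against 21.9% of all genes, and control 2 the highest in 9, against 15.7%. A step below CNT 1 and CNT 2 of over 0.5 was found in 10 of the 31 genes in CNT 3, against 9.45% of all genes, and a step above of that size in 7, against 11.4%. Control 3 had 6 such steps down and 5 up, against 6.89% and 7.68% of all genes.

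Markers of glia and of dividing cells also varied between the arrays. The 12 oligodendrocyte markers averaged 11.98, 11.62 and 10.71 in CNT cultures 1, 2 and 3 and 11.18, 11.69 and 10.91 in control cultures, lowest in culture 3 of both groups (r = 0.93 with Dcx over the 6 arrays). The 12 markers of proliferating cells averaged 10.96, 11.30 and 11.60 in CNT and 11.10, 10.89 and 11.53 in control cultures, highest in culture 3 of both groups. The 13 astrocyte markers averaged 11.71, 11.71 and 11.36 in CNT and 11.78, 11.82 and 11.43 in control cultures. Ncam1 and Cntn1 are also made by glia, and Mapt and Map1b by oligodendrocytes. The part of these cells in the axis was not tested.

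**Figure D4:**
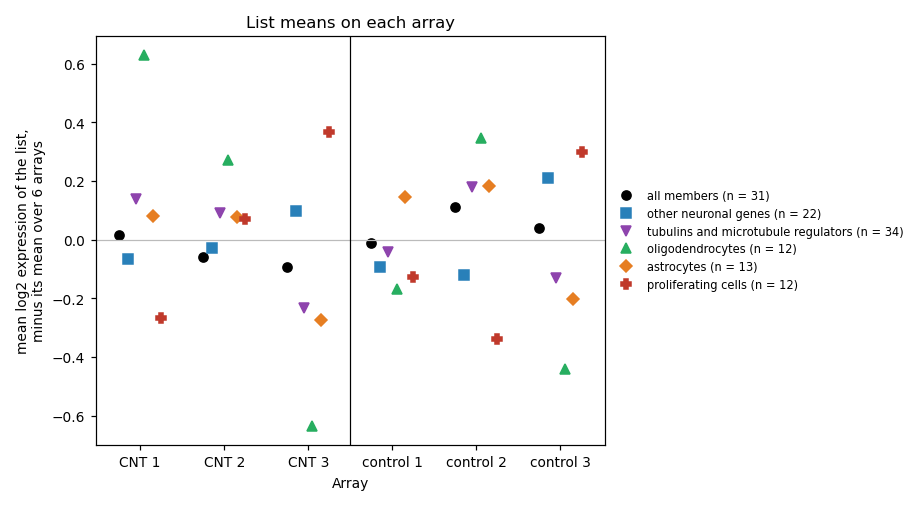
Mean log2 expression of each gene list on each array, relative to the list's mean over the 6 arrays (CNT arrays left of control arrays; 1 symbol per list, number of genes in the legend). The mean of the 31 genes varied by 0.21 between arrays, the 12 oligodendrocyte markers by 1.27. The mean of the 31 averages over genes that moved in opposite directions. The median SD of single genes was 0.33 for the 31 and 0.59 for the oligodendrocyte markers.

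Genes listed here as early and as late in neuronal development did not separate by substrate. Whether these lists mark the stage of the neurons in these cultures was not tested. The mean of 6 late genes (Nefm, Nefh, Rbfox3, Thy1, Eno2 and Map2) minus that of 8 early genes (Dcx, Dpysl3, Crmp1, Gap43, Basp1, Stmn2, Map1b and Tubb3) was -1.17, -1.44 and -1.16 in CNT cultures and -1.25, -1.37 and -1.23 in control cultures. Its difference between substrates was 0.03, within the spread of the CNT arrays (SD 0.16), and it ran from -0.020 without CNT 3 to 0.12 without CNT 2 when 1 array was left out. The early genes alone differed by -0.11 and the late genes by -0.08. Of the late genes Nefh, Rbfox3 and Thy1, and of the early genes Dpysl3, were among the dimmest 30% of genes, which limits this comparison.

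Genes outside the 31 with related functions were read from the same fit. Of 34 other tubulins and microtubule regulators, 2 were higher (Tppp3 and Tuba8) and 1 was lower (Clip1) at an unadjusted p under 0.05, against 2.41% and 0.71% of all genes. None passed after adjustment by limma, and the median log2 fold change was -0.02. Tppp3, a tubulin polymerization promoting protein, was at 10.01, 9.88 and 10.11 in CNT and at 9.28, 9.56 and 9.52 in control cultures. Its groups did not overlap and its log2 fold change was 0.55 (standard error 0.12, unadjusted p = 0.004, limma adjusted p = 0.999). Tuba8 had a log2 fold change of 0.28, and Clip1, which binds growing microtubule ends, of -0.26.

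None of 21 axonal transport motor genes had an unadjusted p under 0.05, and their median was -0.06. Mapk8ip3, Dync1li1 and Dync1i2 came closest, with log2 fold changes of -0.15, 0.23 and -0.12. The same held for 27 genes of growth cone actin and regeneration, with a median of -0.02. Of these Klf7, Dbn1 and Atf3 came closest, with log2 fold changes of -0.44, -0.48 and 0.75. Of the 22 other neuronal genes none had an unadjusted p under 0.05 either, and Gad1, Cpe and Syt1 came closest with -0.48, -0.17 and 0.16. The 9 genes of dorsal root ganglion neurons had a median of 0.09 and the 4 of motor neurons of 0.10, again with no unadjusted p under 0.05. Avil, Scn10a and Isl1 of the first list had fold changes of -0.25, 0.11 and 0.09, and Slc18a3, Chat and Isl2 of the second 0.22, 0.12 and 0.09. All 4 motor neuron genes were among the dimmest 30% of genes, and of the 9 dorsal root ganglion genes only 1 was not.

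Probe sets of the same gene did not always move alike. Of the 17 genes with more than 1 probe set, 8 had fold changes of 1 sign over all their probe sets and 9 did not. The 3 probe sets of Mapt followed each other closely over the 6 arrays (r = 0.96 and 0.97 with the brightest), as did both of Elavl3 (r = 0.98) and of Nefl (r = 0.96). The probe sets of Basp1 (r = -0.19), Stmn2 (r = -0.13) and Map2 (r = -0.10) did not. No probe set of the 31 genes passed limma's test (adjusted p = 0.999 for each).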

How the data were processed

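Gene expression of 3 CNT and 3 control cultures was measured with 1 Affymetrix array each. The authors made the deposited values, log2 expression from RMA for the manufacturer's 31099 probe sets; its version is not given in the sources used here. RMA quantile-normalizes the arrays, so a change shared by most genes is not seen. The RNA kit differs between the labels and the methods. The values were not normalized again.

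The platform annotation pairs 20826 probe sets with 1 gene, 436 with several and 9780 with none; 57 are controls. For each of 14217 genes the probe set of highest mean was used. CNT was compared with control in limma 3.58.1 (R 4.3.3; lmFit, eBayes), with Benjamini-Hochberg adjustment over all genes at 0.05, after tests on simulated data. The rank product took 1000 permutations and required a 2-fold change. Members and lists were chosen with earlier results of these data known. Values on every array are given for members with an unadjusted p under 0.05, separate groups, extreme fold changes or the smallest p of their role, and for a few more chosen after their values were seen; from each pathway list, the 3 genes of smallest p are named. Alternatives were other eBayes settings, array weights, a replicate block, other probe set choices, a filter on dim genes, normalizations, leaving out arrays and a beta-actin covariate. Python read promoter sequences from RefSeq.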

Additional observations from a re-analysis of the deposited data

How the results depend on the processing

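Limma called 0 members under every alternative (23 of the 31 entered the one without the dimmest 30% of genes). Over all genes it called 0, except 2 higher without control 3, and the rank product called 65 higher and 5 lower. The median log2 fold change of the members (-0.04) was -0.12 without control 1 and CNT 2 together and 0.027 with the beta-actin covariate, and ran from -0.13 (without CNT 1) to 0.10 (without CNT 3) when 1 array was left out. The members' mean difference (-0.09) stayed between -0.12 and -0.06 when 1 array was left out. The unadjusted p of Map1b and Prph was not under 0.05 in limma with the replicate block or with the covariate. Nor was it when 1 array other than CNT 3 was left out. For Map1b this also held with averaged probe sets, with median centring and without the dimmest 30% of genes. The sign of Map1b, Prph, Stmn2, Uchl1, Chga and Scg2 was kept under all alternatives run, and 25 members turned under at least 1. The cause was not tested.

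The log2 fold change turned with array weights in Celf4 (-0.055), Crmp1 (0.033), Elavl4 (0.098), Mapt (0.11), Nrcam (0.046), Tubb3 (0.061), with the covariate in Crmp1 (0.024), Elavl2 (0.027), Elavl4 (0.036), Mapt (0.081), Nrcam (0.071), Tubb3 (0.079), without control 1 and CNT 2 in Dcx (-0.38), Dpysl3 (0.16), Elavl3 (-0.10), L1cam (0.0075), Ncam1 (-0.17), Nefh (-0.097), Nefm (0.044), Stmn3 (-0.038), Stmn4 (-0.054), Thy1 (0.22), with all probe sets of a gene averaged in Elavl3 (-0.025), Ncam1 (-0.19), with median centring in Crmp1 (0.011), Elavl2 (0.034), Elavl4 (0.0035), Nrcam (0.022), Tubb3 (0.0087) and with quantile normalization in Elavl2 (0.021), Elavl4 (0.0088). It turned in another probe set of Basp1 (0.11), Dpysl3 (0.0026), Elavl3 (-0.099), Gap43 (-0.012), Mapt (0.016), Ncam1 (-0.36), Ncam1 (-0.23), Nrcam (0.13), Rbfox3 (0.11), Thy1 (0.18). Leaving out 1 array gave -0.29 to 0.64 for Celf4, -0.69 to 0.19 for Cntn1, -0.14 to 0.096 for Crmp1, -0.29 to 0.84 for Dcx, -0.89 to 0.0052 for Dpysl3, -0.12 to 0.14 for Elavl2, -0.16 to 0.36 for Elavl3, -0.20 to 0.18 for Elavl4, -0.077 to 0.27 for Eno2, -0.40 to 0.12 for Ina, -0.26 to 0.048 for Map2. It also gave -0.27 to 0.23 for Mapt, -0.18 to 0.40 for Ncam1, -0.075 to 0.23 for Nefh, -0.49 to 0.068 for Nefl, -0.38 to 0.065 for Nefm, -0.18 to 0.10 for Nrcam, -0.46 to 0.17 for Rbfox3, -0.14 to 0.29 for Stmn4, -0.41 to 0.14 for Thy1, -0.19 to 0.21 for Tubb3. Of the role means and the late minus early difference, only the neurofilament mean moved by over 1 SD (0.00099 with median centring).

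With the replicate block, limma called 0 genes, 498 higher and 179 lower at an unadjusted p under 0.05 (342 and 101 without it), the median stayed at -0.04, and Basp1 alone of the members had an unadjusted p under 0.05. Deviations from the group means correlated by -0.13, 0.36 and 0.51 for replicates 1, 2 and 3. CNT 1 (0.68) and CNT 2 (0.36) were both most like control 2, and CNT 3 (0.51) was most like control 3. Since a shared series is not stated for equal numbers, they were not taken to pair the cultures. A check on 3 arrays per group cannot settle whether the cultures were paired.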

Other observations

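Outside the 31 genes, those whose pattern over the 6 arrays was most like the mean of the 31 were Ppm1g, Ppargc1a, Srsf6, Ccser2 and Vcp, each with a Pearson r of 0.98. The most opposite were Ciao1, Slc25a28, Mphosph6, C7h19orf25 and Pdcd2, each with an r of -0.99. The mean of the 31 genes spans 0.21 on the log2 scale over the 6 arrays, and these are the extremes among all genes. That mean was highest in control 2, where the 3' minus 5' difference of beta-actin was smallest (0.62). It was lowest in CNT 3 (1.72), while the largest difference of beta-actin was in CNT 2 and control 1 (2.20 in each). The part of RNA quality in these patterns was not tested. Ppargc1a, a transcriptional coactivator of mitochondrial genes, had a log2 fold change of -0.25, and Vcp, an ATPase of protein degradation, of -0.21.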
